A study of Mus musculus with 18 samples.

Results

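The 8 genes described here, Nqo1, Hmox1, Gclm, Gclc, Txnrd1, Srxn1, Gsr and Osgin1, are widely used as readouts of the transcription factor NRF2 (gene Nfe2l2). They were taken by gene symbol from the 57180 genes of the deposited count table, each symbol matched 1 row, and all 8 were among the 14263 genes with enough counts to be tested. RNA-seq had been performed on wild-type L929 cells, an established line of mouse fibroblasts, in 6 groups of 3 cultures (18 libraries). The study asked how aspartate shortage, brought about by aminooxyacetic acid (AOA), an inhibitor of aminotransferases, changes the response of cells to cytosolic DNA.

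The control group was Mock, whose treatment is labelled DMSO. The AOA group received 0.5 mM AOA, and the AOA+Asp group received AOA together with 20 mM aspartate. For both groups 1 h of AOA pretreatment is recorded, and their time from AOA to harvest is not given here. Comparisons of AOA-treated groups with and without HT-DNA take that time as equal. The HT-DNA group was transfected with herring testis DNA, a double-stranded DNA that activates the sensor cGAS, at 0.5 μg/ml for 6 h. The HT-DNA+AOA and HT-DNA+AOA+Asp groups received the same DNA after 1 h of AOA, without or with aspartate. No group received aspartate alone, and all groups were cultures of the same line, so the p-values below measure the spread between cultures of 1 line. HT-DNA was delivered with a lipid transfection reagent, and no group is labelled as receiving that reagent without DNA. Effects of the DNA and of the reagent can therefore not be told apart in comparisons of groups with and without HT-DNA.

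NRF2 is held in the cytoplasm and marked for degradation by the adaptor KEAP1 together with the ubiquitin ligase scaffold CUL3. Oxidants and electrophiles modify KEAP1, NRF2 then accumulates, pairs with a small MAF protein and binds antioxidant response elements, while the heme-sensitive repressor BACH1 competes for the same elements. The target genes make and recycle glutathione (Gclc, Gclm, Gsr), run the thioredoxin and peroxiredoxin system (Txnrd1, Srxn1), reduce quinones (Nqo1) and break down heme (Hmox1). Osgin1, an oxidative stress-induced growth inhibitor, is a further target. Several of them, Hmox1 above all, are also driven by other factors such as AP-1, NF-κB, ATF4 and HSF1.

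Promoter windows of 5 of the 8 genes (Nqo1, Gclm, Txnrd1, Srxn1 and Osgin1) were found in RefSeq's annotation of mouse build GRCm38.p6, each running from 250 bases before to 50 bases after a start site. Hmox1, Gclc and Gsr had no entry. Both strands were searched for TGACNNNGC, the core of the antioxidant response element, and for TGANTCA, the AP-1 site, whose letters can overlap those of the element. The first was found in 12.4% of all 32851 windows and the second in 7.81%. The stretches below are shown because they hold a match before the start site in genes that moved with AOA, on the plus strand of the genome and of the gene, with the match in capitals. A match is a description of letters and not evidence of binding. Other spellings of the element were not searched for, so a stretch labelled as an AP-1 site may also hold one.
Gclm, antioxidant response element core on the reverse strand, 134 bases before the start, chr3:122245393-122245461: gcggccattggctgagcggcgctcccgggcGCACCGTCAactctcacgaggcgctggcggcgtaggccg
Txnrd1, antioxidant response element core on the reverse strand, 92 bases before the start in 1 of its 3 windows, chr10:82859084-82859152: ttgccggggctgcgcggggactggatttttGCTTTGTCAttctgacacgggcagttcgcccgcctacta
Srxn1, AP-1 site 102 bases before the start, chr2:152105392-152105458: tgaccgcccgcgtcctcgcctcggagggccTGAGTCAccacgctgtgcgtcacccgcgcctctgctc
Srxn1, AP-1 site 45 bases before the start, chr2:152105449-152105515: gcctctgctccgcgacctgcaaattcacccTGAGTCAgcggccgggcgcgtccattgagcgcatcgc
Osgin1, AP-1 site 97 bases before the start, chr8:119437020-119437086: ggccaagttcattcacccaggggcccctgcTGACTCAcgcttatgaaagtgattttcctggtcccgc
The Srxn1 window also held the antioxidant response element core, 28 bases after the start and therefore not shown, and the Nqo1 window held neither set of letters. Sequence outside these windows was not searched, so a gene without a match here may hold one further away.

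The deposited values are estimated read counts, which were rounded, and libraries held 17901605 to 24057343 of them. The 3 HT-DNA+AOA libraries differed among themselves more than those of any other group. Chi-square per degree of freedom was 18.3 to 67.2 between them and 2.78 to 13.3 between replicates elsewhere. Of 10 fibroblast markers, 8 had a mean over 1 CPM (counts scaled to a library of 1000000) in every group, with summed levels of 4986 to 7290 CPM over the libraries, while Lox was at 0 in every library and Thy1 was at most 0.169 CPM in any. None of 6 epithelial and 4 endothelial markers reached 1 CPM, and of 6 leukocyte markers only Cd68 did (114 to 144 CPM, summed list 110 to 155.2 CPM), with Ptprc, Adgre1 and Cd3e at 0. All 8 genes were counted well above the floor of the assay, from 113 counts for Osgin1 in its lowest library to 9413 for Txnrd1 in its highest. Gclm had a whole-number count in only 1 of 18 libraries and has 6.82% of its 31-base stretches in common with transcripts of other genes, most often Ppia, so that its counts rest partly on how shared reads were divided. For Srxn1 this was 0.738%, and for the other 6 genes 0%.

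Per kilobase of exon, Srxn1 (79.1 CPM per kb) and Txnrd1 (77.3 CPM per kb) were the most abundant of the 8 in Mock cells. Gsr followed with 30.5 CPM per kb, and Gclc, Hmox1 and Gclm lay between 14.6 and 17.1 CPM per kb. Nqo1 at 7.31 and Osgin1 at 5.16 CPM per kb were the lowest. The genes also differed in how far they moved. Between the lowest and the highest of the 6 group means, Nqo1 spanned 0.25 on the log2 scale, Gclc 0.43, Srxn1 0.66, Txnrd1 0.77, Hmox1 0.79, Gclm 0.82, Gsr 0.95 and Osgin1 1.23.

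**Figure D1:**
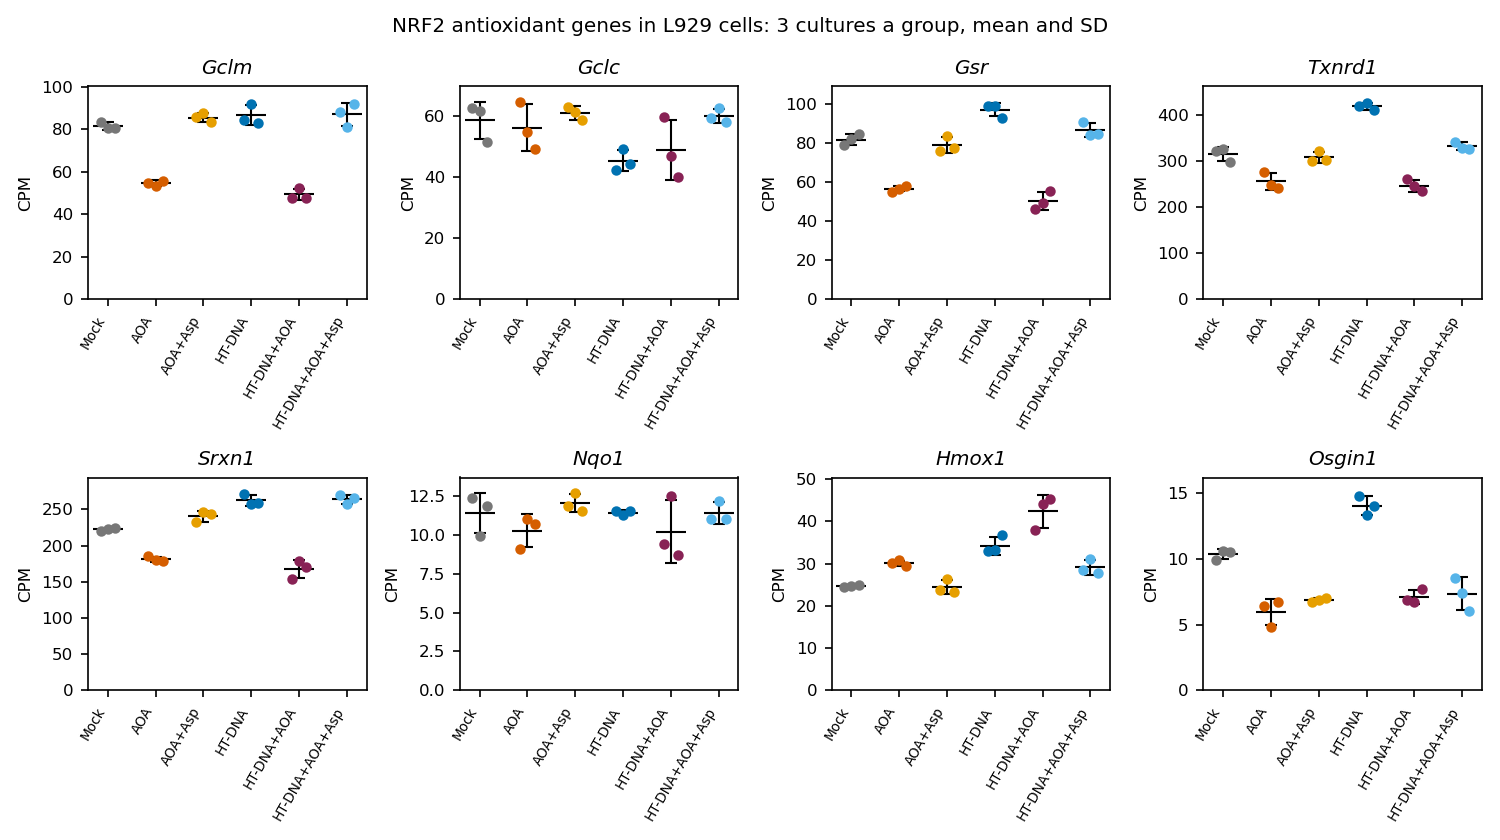
CPM (linear axis from 0) of each of the 8 genes in the 3 libraries of each of the 6 groups; points are libraries, and the bar with whiskers is the mean ± SD. Gclm, Gsr, Txnrd1 and Srxn1 are low in both AOA groups without aspartate, Osgin1 is low in all 4 groups that received AOA, and Hmox1 is highest with HT-DNA+AOA.

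AOA alone lowered 5 of the 8 genes, raised Hmox1 and left Nqo1 and Gclc without a detectable change. Of all genes tested, 45.7% were called in this comparison (edgeR's quasi-likelihood test, Benjamini-Hochberg adjusted p under 0.05), 23.3% lower and 22.4% higher. The median log2 fold change of the 8 genes was -0.30, that of all genes 0.015. Libraries of the groups did not overlap for 59.4% of all genes. In RNA from whole cultures, fewer cells expressing a gene and less of its RNA per cell cannot be told apart.

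Among the glutathione genes, Gclm, the modifier subunit of glutamate-cysteine ligase, was at 83.5, 80.4 and 80.5 CPM in Mock and at 54.9, 53.2 and 55.8 CPM with AOA. Every AOA library lay below every Mock library, with a log2 fold change of -0.58 ± 0.065 (SE) and an adjusted p of 1.08e-06. After removal of each library's trend with GC content and transcript length, here called the GC content and length correction, it was -0.38 (adjusted p = 0.00299). Gclc, the catalytic subunit of the same enzyme, did not follow it: its libraries were at 62.6, 61.6 and 51.6 CPM in Mock and at 64.6, 54.6 and 49.3 CPM with AOA, and the ranges overlapped (log2 fold change -0.06 ± 0.12, adjusted p = 0.709). Gsr, the reductase that regenerates glutathione from its oxidized form, was at 78.6, 81.8 and 84.5 CPM in Mock and at 55, 56.5 and 57.7 CPM with AOA. The groups did not overlap, and the log2 fold change was -0.53 ± 0.07 (adjusted p = 6.57e-06).

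Txnrd1, the cytosolic thioredoxin reductase, was at 322, 325 and 298 CPM in Mock and at 276, 249 and 242 CPM with AOA (log2 fold change -0.30 ± 0.064, adjusted p = 0.000813). Srxn1, sulfiredoxin, which repairs overoxidized peroxiredoxins, was at 220.2, 223 and 225 CPM in Mock and at 185, 180.3 and 178 CPM with AOA (log2 fold change -0.30 ± 0.06, adjusted p = 0.000569). Neither gene's groups overlapped, and both falls were smaller than those of Gclm and Gsr in fitted value, a difference between genes that was not tested. Osgin1 showed the lowest fold change of the 8, from 9.9, 10.6 and 10.5 CPM in Mock to 6.42, 4.85 and 6.69 CPM with AOA, with no overlap (log2 fold change -0.80 ± 0.13, adjusted p = 6.01e-05).

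Hmox1, heme oxygenase 1, went the other way. It was at 24.5, 24.7 and 24.9 CPM in Mock and at 30.1, 30.8 and 29.5 CPM with AOA, with no overlap, and the log2 fold change was 0.29 ± 0.081 (adjusted p = 0.0071). The call ended with library totals in place of edgeR's TMM scaling (0.16, adjusted p = 0.0934) and after the GC content and length correction (0.15, adjusted p = 0.0636). Nqo1, the quinone reductase often used as an NRF2 readout, was at 12.4, 9.91 and 11.8 CPM in Mock and at 9.06, 11 and 10.7 CPM with AOA, and its libraries overlapped (log2 fold change -0.15 ± 0.12, adjusted p = 0.351).

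Aspartate brought 4 of the 5 lowered genes back up. Relative to AOA, AOA+Asp raised Gclm, Gsr, Srxn1 and Txnrd1 and lowered Hmox1, in a comparison in which 46.3% of all genes were called (23.5% higher and 22.8% lower, with 56.8% not overlapping). Gclm was at 85.9, 87.5 and 83.2 CPM with AOA+Asp (log2 fold change over AOA 0.65 ± 0.065, adjusted p = 3.31e-07), and the GC content and length correction lowered the value to 0.33 (adjusted p = 0.00784). Gsr was at 75.7, 83.7 and 77.5 CPM (0.48 ± 0.07, adjusted p = 2.12e-05). For both genes every AOA+Asp library lay above every AOA library.

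Srxn1 was at 232, 247 and 244 CPM with AOA+Asp (0.41 ± 0.06, adjusted p = 2.48e-05) and Txnrd1 at 299.8, 321 and 302 CPM (0.27 ± 0.064, adjusted p = 0.00222), again with no overlap with AOA. Hmox1 was at 23.8, 26.4 and 23.3 CPM, below every AOA library (log2 fold change -0.30 ± 0.081, adjusted p = 0.00566), a call that ended after the GC content and length correction (-0.09, adjusted p = 0.279). Osgin1 was at 6.72, 6.9 and 7.04 CPM, above every AOA library but by a log2 fold change of 0.21 ± 0.13 that did not pass the test (adjusted p = 0.202). After that correction it did (0.37, adjusted p = 0.0281), and so did Nqo1 (0.31, adjusted p = 0.0295, against 0.23 ± 0.12, adjusted p = 0.14, before), whose AOA+Asp libraries also lay above every AOA library.

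Against Mock, AOA+Asp left 1 of the 8 genes changed, Osgin1, in a comparison in which 6.47% of all genes were called (3.95% lower and 2.52% higher) and 32.7% did not overlap. Osgin1 stayed below every Mock library (log2 fold change -0.59 ± 0.13, adjusted p = 0.00781), whereas the other 7 genes had log2 fold changes of -0.05 to 0.11. Srxn1, at the upper end of that range, lay above every Mock library and did not pass the test (0.11 ± 0.06, adjusted p = 0.29). It did after the GC content and length correction (0.20, adjusted p = 0.00514).

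**Figure D2:**
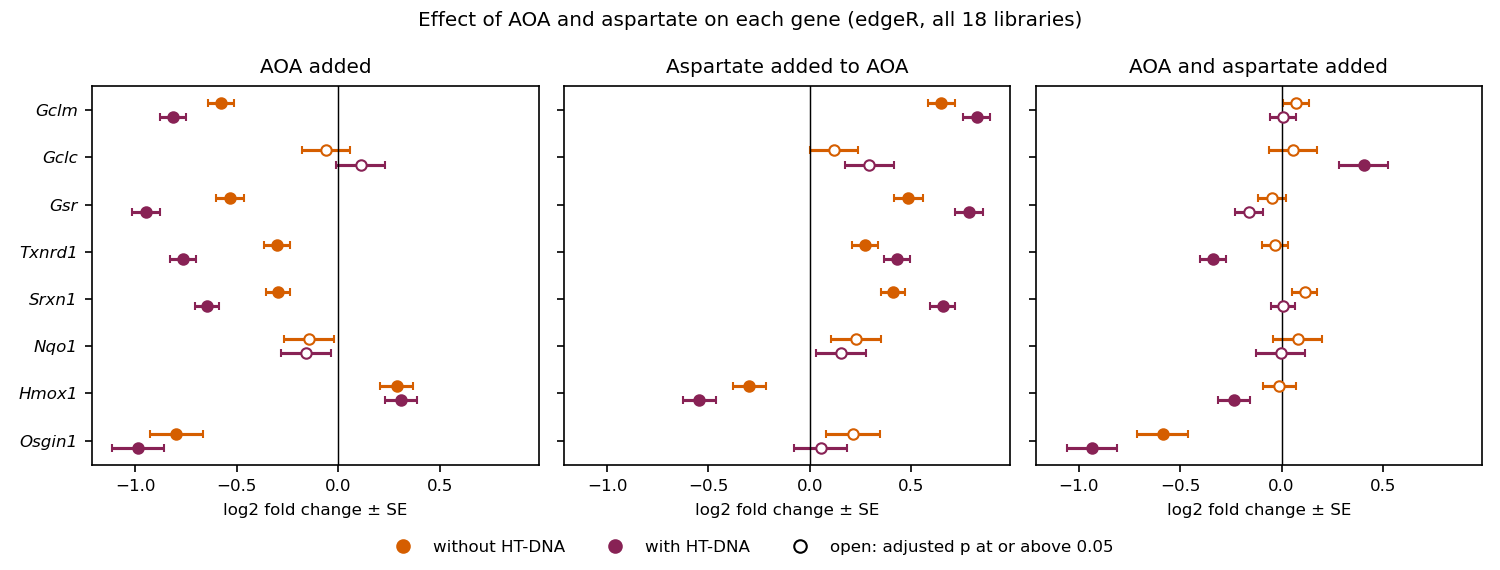
Log2 fold change ± SE of each gene (rows) when AOA, aspartate on top of AOA, or both were added (panels), without HT-DNA (orange) and with HT-DNA (purple); filled points passed adjusted p under 0.05. Gclm, Gsr, Txnrd1 and Srxn1 fall with AOA and rise with aspartate in both backgrounds, and Osgin1 stays low in the third panel.

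HT-DNA alone, given with its transfection reagent, raised 5 of the 8 genes and lowered Gclc. In this comparison 48.2% of all genes were called, 24.2% higher and 24% lower, 61.3% did not overlap, and the median log2 fold change was 0.24 for the 8 genes and -0.01 for all genes. Hmox1 was at 33, 33.2 and 36.7 CPM with HT-DNA, above every Mock library (log2 fold change 0.48 ± 0.081, adjusted p = 0.000161), and after the GC content and length correction at 0.18 (adjusted p = 0.0239). Txnrd1 was at 419, 427 and 411 CPM, also above every Mock library (0.41 ± 0.064, adjusted p = 7.6e-05). This gene held its call in all 14 alternative fits, with log2 fold changes of 0.30 to 0.48.

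The calls of the 3 other rises depended on the scaling. Osgin1 was at 14.8, 13.3 and 14 CPM with HT-DNA, with no overlap with Mock (0.44 ± 0.12, adjusted p = 0.00585), but at a log2 fold change of 0.08 after the GC content and length correction (adjusted p = 0.64). Srxn1 was at 272, 258 and 259 CPM (0.24 ± 0.06, adjusted p = 0.00328), and its call ended with that correction (0.06, adjusted p = 0.266) and with library totals (0.13, adjusted p = 0.0611). Gsr was at 98.6, 98.9 and 92.9 CPM (0.25 ± 0.069, adjusted p = 0.00729), and its call ended with library totals only (0.14, adjusted p = 0.0746). Library totals shifted the median log2 fold change of all genes by -0.11 in this comparison.

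The ligase subunits parted with HT-DNA as well. Gclc was at 42.4, 49.2 and 44.4 CPM, below every Mock library (log2 fold change -0.37 ± 0.12, adjusted p = 0.0164), whereas Gclm was at 84.6, 92 and 83.2 CPM and overlapped Mock (0.09 ± 0.065, adjusted p = 0.274). The Gclc call ended without Mock replicate 1 (adjusted p = 0.0706), Mock replicate 2 (0.0612), HT-DNA replicate 1 (0.0703) or HT-DNA replicate 3 (0.0539). The GC content and length correction brought Gclc to -0.23 (adjusted p = 0.0359). For Gclm it gave a rise of 0.49 (adjusted p = 0.000448). Nqo1, at 11.5, 11.2 and 11.5 CPM, lay within the range of the Mock libraries (0.01 ± 0.12, adjusted p = 0.973).

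AOA added to HT-DNA lowered the same 5 genes as AOA alone, named above, and again raised Hmox1, among 45.4% of all genes called (22.7% lower and 22.8% higher, with 44.8% not overlapping). The median log2 fold change of the 8 genes was -0.71, that of all genes 0.024. Gsr fell from the HT-DNA values given above to 46.2, 49.2 and 55.3 CPM (log2 fold change -0.95 ± 0.071, adjusted p = 3.82e-09). Osgin1 fell to 6.84, 6.73 and 7.69 CPM (-0.99 ± 0.13, adjusted p = 3.2e-06). All 3 HT-DNA+AOA libraries were below all 3 HT-DNA libraries for both genes.

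Gclm was at 47.8, 52.2 and 47.8 CPM with HT-DNA+AOA (-0.81 ± 0.066, adjusted p = 1.06e-08). Txnrd1 was at 259.5, 246 and 234 CPM (-0.77 ± 0.065, adjusted p = 1.73e-08) and Srxn1 at 154, 179 and 170.4 CPM (-0.65 ± 0.061, adjusted p = 6.29e-08). None of these 3 genes overlapped HT-DNA. The falls of Gclm, Gsr, Txnrd1, Srxn1 and Osgin1 with AOA, without and with HT-DNA, were called in each of the 14 alternative fits per comparison, including those that left out 1 HT-DNA+AOA library.

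Hmox1 reached its highest level of the experiment with HT-DNA+AOA, at 38, 44.1 and 45.3 CPM, above every HT-DNA library (log2 fold change 0.31 ± 0.079, adjusted p = 0.00362). The call ended when only the 6 libraries compared were fitted (0.31, adjusted p = 0.0586). Gclc, at 59.6, 47 and 40 CPM, overlapped HT-DNA (0.11 ± 0.12, adjusted p = 0.484). Nqo1, at 9.4, 12.5 and 8.71 CPM, overlapped too (-0.16 ± 0.12, adjusted p = 0.317). Without HT-DNA+AOA replicate 2 it passed the test (-0.33, adjusted p = 0.0346), as it did after the GC content and length correction (-0.33, adjusted p = 0.0214).

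The effect of AOA was more negative with HT-DNA than without it for 3 genes. The difference of the log2 fold changes was -0.46 ± 0.091 for Txnrd1 (adjusted p = 0.00344), -0.35 ± 0.085 for Srxn1 (adjusted p = 0.0117) and -0.41 ± 0.1 for Gsr (adjusted p = 0.0111), and 15.5% of all genes were called in this interaction, 8.26% with a negative sign. For Osgin1 the difference of -0.19 ± 0.18 did not pass the test (adjusted p = 0.485). That of Gclm was -0.24 ± 0.093 (adjusted p = 0.0874) and, after the GC content and length correction, -0.55 (adjusted p = 0.00925). For Nqo1, Hmox1 and Gclc it was -0.01, 0.02 and 0.17. The 3 interactions were called in each of the 20 alternative fits, with values of -0.50 to -0.37 for Txnrd1, -0.40 to -0.20 for Srxn1 and -0.49 to -0.32 for Gsr. The -0.20 of Srxn1 came from the GC content and length correction (adjusted p = 0.0374).

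Read the other way, HT-DNA raised 1 of the 8 genes in AOA-treated cells. Between HT-DNA+AOA and AOA 13.4% of all genes were called (6.46% higher and 6.98% lower) and 21% did not overlap, and Hmox1 was higher in every HT-DNA+AOA library (log2 fold change 0.50 ± 0.08, adjusted p = 0.000284). Txnrd1, Srxn1, Gsr and Gclm had log2 fold changes of -0.05, -0.11, -0.17 and -0.15, with adjusted p of 0.678, 0.26, 0.136 and 0.158, and every HT-DNA+AOA library lay below every AOA library for Gclm. Osgin1 lay above every AOA library at 0.25 ± 0.13 (adjusted p = 0.251). Gclc passed the test as lower without HT-DNA+AOA replicate 1 (-0.37, adjusted p = 0.0115) and Gsr without replicate 3 (-0.24, adjusted p = 0.0215). After the GC content and length correction Gsr (-0.20, adjusted p = 0.012) and Srxn1 (-0.13, adjusted p = 0.0448) passed it as lower.

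Aspartate added to HT-DNA+AOA raised Gclm, Gsr, Srxn1 and Txnrd1 and lowered Hmox1, the same 5 genes with the same signs as without HT-DNA, among 47.7% of all genes called (23.7% higher and 23.9% lower, with 48.8% not overlapping). Gclm was at 88.2, 81.2 and 91.8 CPM with HT-DNA+AOA+Asp (log2 fold change over HT-DNA+AOA 0.82 ± 0.066, adjusted p = 1.37e-08, and 0.52, adjusted p = 0.000224, after the GC content and length correction). Gsr was at 90.9, 84.2 and 84.4 CPM (0.78 ± 0.071, adjusted p = 6.39e-08). Both genes were above every HT-DNA+AOA library.

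Srxn1 was at 269.6, 257 and 266 CPM (0.65 ± 0.061, adjusted p = 8.61e-08), Txnrd1 at 342, 327 and 327 CPM (0.43 ± 0.065, adjusted p = 2.84e-05) and Hmox1 at 28.5, 31.2 and 27.7 CPM (-0.54 ± 0.08, adjusted p = 2.25e-05), all without overlap. The Hmox1 value was -0.34 (adjusted p = 0.00013) after the GC content and length correction. Osgin1, at 8.56, 7.41 and 6.06 CPM, did not follow (0.05 ± 0.13, adjusted p = 0.765). Gclc, at 59.2, 62.6 and 58 CPM, missed the threshold (0.29 ± 0.12, adjusted p = 0.0521) and passed it without HT-DNA+AOA replicate 1 (0.46, adjusted p = 7e-04), with library totals (0.38, adjusted p = 0.0256), with no filter on low counts (0.30, adjusted p = 0.00888) and after the GC content and length correction (0.26, adjusted p = 0.0146). Nqo1, at 11, 12.2 and 11 CPM, was at 0.15 ± 0.12 (adjusted p = 0.319) and passed only without HT-DNA+AOA replicate 2 (0.33, adjusted p = 0.0372).

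The aspartate effect depended detectably on HT-DNA in few of all genes tested, so that a count of 0 says nothing particular about the 8 genes. The interaction was called for 0 of the 8 genes, against 1.05% of all genes, with 3 of them at an unadjusted p under 0.05 and 0 called by DESeq2. The differences ran from -0.25 for Hmox1 to 0.30 for Gsr (SE 0.114 and 0.1). Gsr passed the test without HT-DNA+AOA replicate 3 (0.37, adjusted p = 0.029) and after the GC content and length correction (0.29, adjusted p = 0.0454).

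With both compounds present, the response to HT-DNA was small over all genes tested (median absolute log2 fold change 0.128). A count of 0 called therefore says nothing particular about the 8 genes. Their median log2 fold change was 0.10, that of all genes -0.002. Between HT-DNA+AOA+Asp and AOA+Asp edgeR called 0 of the 8 genes, against 3.45% of all genes, with 2 at an unadjusted p under 0.05 and 0 called by DESeq2. Hmox1 (log2 fold change 0.25 ± 0.081, adjusted p = 0.112), Srxn1 (0.13 ± 0.06, adjusted p = 0.288), Gsr (0.13 ± 0.07, adjusted p = 0.384) and Txnrd1 (0.11 ± 0.064, adjusted p = 0.449) were higher in every HT-DNA+AOA+Asp library, against 28.5% of all genes without overlap in either direction. Hmox1 passed the test when only the libraries compared were fitted (0.26, adjusted p = 0.0213).

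Compared with HT-DNA alone, HT-DNA+AOA+Asp left 3 genes lower and 1 higher, among 46.6% of all genes called (23.5% lower and 23.2% higher, with 61.1% not overlapping). Osgin1 (log2 fold change -0.93 ± 0.12, adjusted p = 2.67e-05) and Txnrd1 (-0.34 ± 0.064, adjusted p = 0.000543) were below every HT-DNA library, and Gclc was above (0.40 ± 0.12, adjusted p = 0.0107). After the GC content and length correction Osgin1 was at -0.50 (adjusted p = 0.00387) and Gclc at 0.25 (adjusted p = 0.0271). Without HT-DNA replicate 1 the Gclc value was 0.36 (adjusted p = 0.0507). Hmox1 was lower (-0.24 ± 0.08, adjusted p = 0.0224), but the call ended without HT-DNA replicate 3 (adjusted p = 0.113), without HT-DNA+AOA+Asp replicate 1 (0.0687) or 3 (0.0923) and with no filter on low counts (0.0829), and the sign turned after the GC content and length correction (0.05, adjusted p = 0.597).

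Gsr, at -0.16 ± 0.069, lay below every HT-DNA library but missed the threshold (adjusted p = 0.0615) and passed it with DESeq2 (adjusted p = 0.0462) and when only the libraries compared were fitted (0.0249). Gclm, Srxn1 and Nqo1 had log2 fold changes of 0.01, 0.01 and 0.00 against HT-DNA. After the GC content and length correction Gclm was at -0.41 (adjusted p = 0.00251) and Srxn1 at 0.22 (adjusted p = 0.000854).

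The order of the 6 groups was therefore not the same for each gene. For Gclm, Gsr, Txnrd1 and Srxn1 the lowest group means were HT-DNA+AOA and then AOA (adjusted p for that step 0.136 to 0.678), and the step from AOA to the next group passed the test. Above it, Mock, AOA+Asp, HT-DNA+AOA+Asp and HT-DNA followed each other without a step that passed, except that HT-DNA stood above HT-DNA+AOA+Asp for Txnrd1. Osgin1 fell into a low set of the 4 groups with AOA (5.99 to 7.34 CPM), then Mock (10.3 CPM; adjusted p = 0.0123 against HT-DNA+AOA+Asp), then HT-DNA (14 CPM). For Hmox1 only the last step, from HT-DNA to HT-DNA+AOA, passed, and for Nqo1 and Gclc no step between neighbours did.

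Over the 18 libraries, Pearson's r of log2 CPM was 0.95 between Gclm and Srxn1, 0.95 between Gclm and Gsr, and 0.96 between Srxn1 and Gsr, and Txnrd1 followed them with 0.82 to 0.90. Gclc stood at 0.02 to 0.25 with the genes of that set other than Txnrd1 (-0.06), and Hmox1 at -0.67 with Gclc and -0.62 with Gclm. These are descriptions over libraries of 6 groups, which share their treatments. Among 2528 other genes of at least 1 CPM and a range of at least 1 on the log2 scale, the pattern most like Gsr was that of Pgd, an enzyme of the pentose phosphate pathway (r = 0.99), followed by Plekho1 and Steap3 (both 0.98). Txnrd1 was most like Apbb1ip (0.96), Lpcat1 (0.95) and the chaperone gene Hspa8 (0.94), and Srxn1 most like Gm49384 (0.96), Gm15459 (0.96) and again Hspa8 (0.95). Gclm was most like Ldb3, E2f6 and Acin1 (0.97 each). For Osgin1 the genes were N4bp3 (0.97), Dusp2 (0.95) and Dusp7 (0.95), for Hmox1 Ogfr (0.98) and Ifitm3 (0.97), and for Gclc Sbsn (0.96), Zfp871 (0.94) and 1700109H08Rik (0.93). For Nqo1 the highest r was 0.71, with Tincr, then Zfp983 (0.70) and Nme7 (0.68).

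The messenger of NRF2 itself did not follow its targets. Nfe2l2 was at 101 CPM in Mock and 108 CPM with AOA (log2 fold change 0.09 ± 0.078, adjusted p = 0.368), fell to 75.6 CPM with HT-DNA (-0.42 ± 0.079, adjusted p = 0.000361) and rose to 98.4 CPM with HT-DNA+AOA (0.38 ± 0.079 over HT-DNA, adjusted p = 0.000599). Keap1 rose with HT-DNA (0.39 ± 0.081, adjusted p = 0.000855) and was lower with HT-DNA+AOA than with HT-DNA (-0.36 ± 0.081, adjusted p = 0.00114). Bach1 fell with HT-DNA from 31.9 to 20.8 CPM (-0.62 ± 0.16, adjusted p = 0.00465). With HT-DNA+AOA it was at 20.7 CPM, over libraries at 27.5, 21.6 and 13.1 CPM. It rose from there to 30 CPM with HT-DNA+AOA+Asp (0.53 ± 0.17, adjusted p = 0.0131). With AOA alone its libraries were at 29.3, 25.1 and 22.6 CPM, against 35, 31.2 and 29.4 CPM in Mock.

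Of the 14 genes listed as NRF2 regulators, 3 rose and 3 fell with AOA, 4 rose and 5 fell with HT-DNA, and 5 rose and 3 fell when AOA was added to HT-DNA. The medians were 0.04, -0.19 and 0.12 on the log2 scale. In all, 42.9%, 64.3% and 57.1% of the list were called, against 45.7%, 48.2% and 45.4% of all genes. Sqstm1, the autophagy adaptor that binds KEAP1, rose with AOA from 811 to 1338 CPM (0.72 ± 0.068, adjusted p = 1.05e-07), and Nfe2l1, a sister factor of NRF2 known for proteasome genes, from 300.0 to 505 CPM (0.75 ± 0.057, adjusted p = 9.32e-09). Both also rose when AOA was added to HT-DNA (0.74 and 1.01) and fell with aspartate in either background (-0.60 and -0.85 without HT-DNA, -0.70 and -0.76 with it).

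Other genes commonly listed as NRF2 targets moved in both directions. The lists overlap, and 13 genes stand on more than 1 of them, so that their counts are not separate (Cat, Prdx1, Prdx3, Prdx5, Txn1, Slc7a11, Gpx1, Gpx4, Bach1, Blvrb, Fth1, Ftl1 and Slc48a1). Of 31 other targets, 27 were tested, and with AOA 5 rose and 9 fell (median -0.06), which is 18.5% and 33.3% against 22.4% and 23.3% of all genes. The lowest values were those of Cat, catalase (log2 fold change -1.15 ± 0.1), and Pgd (-1.05 ± 0.083), and the highest that of Gsta1, a glutathione transferase (0.64 ± 0.085). With HT-DNA 10 rose and 3 fell (median 0.13), 37% and 11.1% against 24.2% and 24% of all genes, led by Cbr3, a carbonyl reductase (0.82 ± 0.14). After the GC content and length correction the calls of Ftl1 (-0.10) and Gstp1 (-0.00626) ended, and Abcc1 was called higher (0.21). Adding AOA to HT-DNA raised 2 and lowered 8 (median -0.10; 7.41% and 29.6% against 22.8% and 22.7%). Adding aspartate to HT-DNA+AOA raised 5 and lowered 4 (median -0.03; 18.5% and 14.8% against 23.7% and 23.9%).

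Pgd followed the pattern of Gsr at a larger amplitude: it was at 340 ± 8.13 CPM (SD, n = 3) in Mock, 164 ± 6.66 CPM with AOA, 317 ± 20 CPM with AOA+Asp, 415 ± 16 CPM with HT-DNA, 142 ± 20.4 CPM with HT-DNA+AOA and 324 ± 12.6 CPM with HT-DNA+AOA+Asp. Slc7a11, the cystine importer that feeds glutathione synthesis, was at 37.7 ± 1.39 CPM in Mock and 23.4 ± 0.699 CPM with AOA (-0.69 ± 0.12, adjusted p = 0.000101). Unlike Gclm, Gsr, Txnrd1 and Srxn1 it was at its lowest with HT-DNA (19 ± 2.7 CPM, -0.98 ± 0.12 against Mock, adjusted p = 6.45e-06), and with HT-DNA+AOA+Asp it was at 42.9 ± 2.36 CPM. Its interaction of AOA with HT-DNA was 0.94 ± 0.17 (adjusted p = 0.0017), of opposite sign to those of Txnrd1, Srxn1 and Gsr.

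Around the glutathione members, 11 of the 18 other glutathione genes rose with AOA and 2 fell (median 0.32; 61.1% and 11.1% against 22.4% and 23.3% of all genes). Aspartate reversed the balance (2 higher, 9 lower, median -0.25; 11.1% and 50% against 23.5% and 22.8%). Chac1, which degrades glutathione, rose with AOA from 11.6 ± 0.955 to 43.8 ± 2.42 CPM (1.91 ± 0.12, adjusted p = 9.55e-10) and was at 11.9 ± 1.62 CPM with AOA+Asp. Slc3a2, the partner chain of Slc7a11, rose as well (1.02 ± 0.069), while Slc7a11 fell. With HT-DNA 10 of the 18 rose and 2 fell (median 0.33; 55.6% and 11.1% against 24.2% and 24%), Gss, glutathione synthetase, among those that rose (0.60 ± 0.076). The call of Gpx4, also on the list of other antioxidant genes, ended after the GC content and length correction (-0.04, adjusted p = 0.518). Adding AOA to HT-DNA raised 4 and lowered 3 (median 0.05; 22.2% and 16.7% against 22.8% and 22.7%). Adding aspartate to that raised 1 and lowered 11 (median -0.33; 5.56% and 61.1% against 23.7% and 23.9%).

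Of 12 thioredoxin and peroxiredoxin genes other than Txnrd1 and Srxn1, 8 rose and 1 fell with AOA (median 0.25; 66.7% and 8.33% against 22.4% and 23.3% of all genes). The same counts held for HT-DNA (median 0.35; 66.7% and 8.33% against 24.2% and 24%). When AOA was added to HT-DNA, 0 rose and 1 fell (median -0.03; 0% and 8.33% against 22.8% and 22.7%). The mitochondrial reductase Txnrd2 rose with AOA (0.48 ± 0.12, adjusted p = 0.00279) where Txnrd1 fell. The gene that fell was Txnip, an inhibitor of thioredoxin (-0.81 ± 0.093 with AOA). Thioredoxin itself, Txn1, was at 237 CPM in Mock and 228 CPM with AOA (-0.06 ± 0.09, adjusted p = 0.649) and rose with HT-DNA (0.38 ± 0.09, adjusted p = 0.00209). Of 12 other antioxidant genes, which include Prdx3 and Prdx5 of the preceding list, 8 rose and 1, Cat, fell with AOA (median 0.30; 66.7% and 8.33% against 22.4% and 23.3%). Sesn2, a stress-induced sestrin, rose by 0.89 ± 0.088. With HT-DNA 6 of the 12 other antioxidant genes rose and 2 fell (median 0.19; 50% and 16.7% against 24.2% and 24%). When AOA was added to HT-DNA, 2 of the 12 rose and 1 fell (median 0.03; 16.7% and 8.33% against 22.8% and 22.7%).

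Beside Hmox1, heme and iron genes mostly did not share its rise with AOA. Of 12 tested, 4 fell and 0 rose with AOA (median -0.18), and 5 fell and 0 rose when AOA was added to HT-DNA (median -0.20). These falls are 33.3% and 41.7% of the list, against 23.3% and 22.7% of all genes. Alas1, which starts heme synthesis, fell in the latter (-0.59 ± 0.094) and rose with aspartate without HT-DNA (0.72 ± 0.092) and with it (0.89 ± 0.093). With HT-DNA 6 of the 12 rose and 2 fell (median 0.18; 50% and 16.7% against 24.2% and 24%). After the GC content and length correction Ftl1 and Ireb2 changed sign in this comparison and were not called. Heat shock genes, which like Hmox1 answer to HSF1, fell with AOA in 6 of 7 tested (median -0.72; 85.7% against 23.3% of all genes), and 7 of 7 rose when aspartate was added (median 0.87; 100% against 23.5%). Hspa8 was at 1417 ± 12.7 CPM in Mock, 827 ± 47.8 CPM with AOA, 2208 ± 26.2 CPM with HT-DNA and 809 ± 36.9 CPM with HT-DNA+AOA. Hspa1b, which has a near-identical neighbour so that its counts are uncertain, fell by 2.38 ± 0.21 on the log2 scale with AOA.

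**Figure D3:**
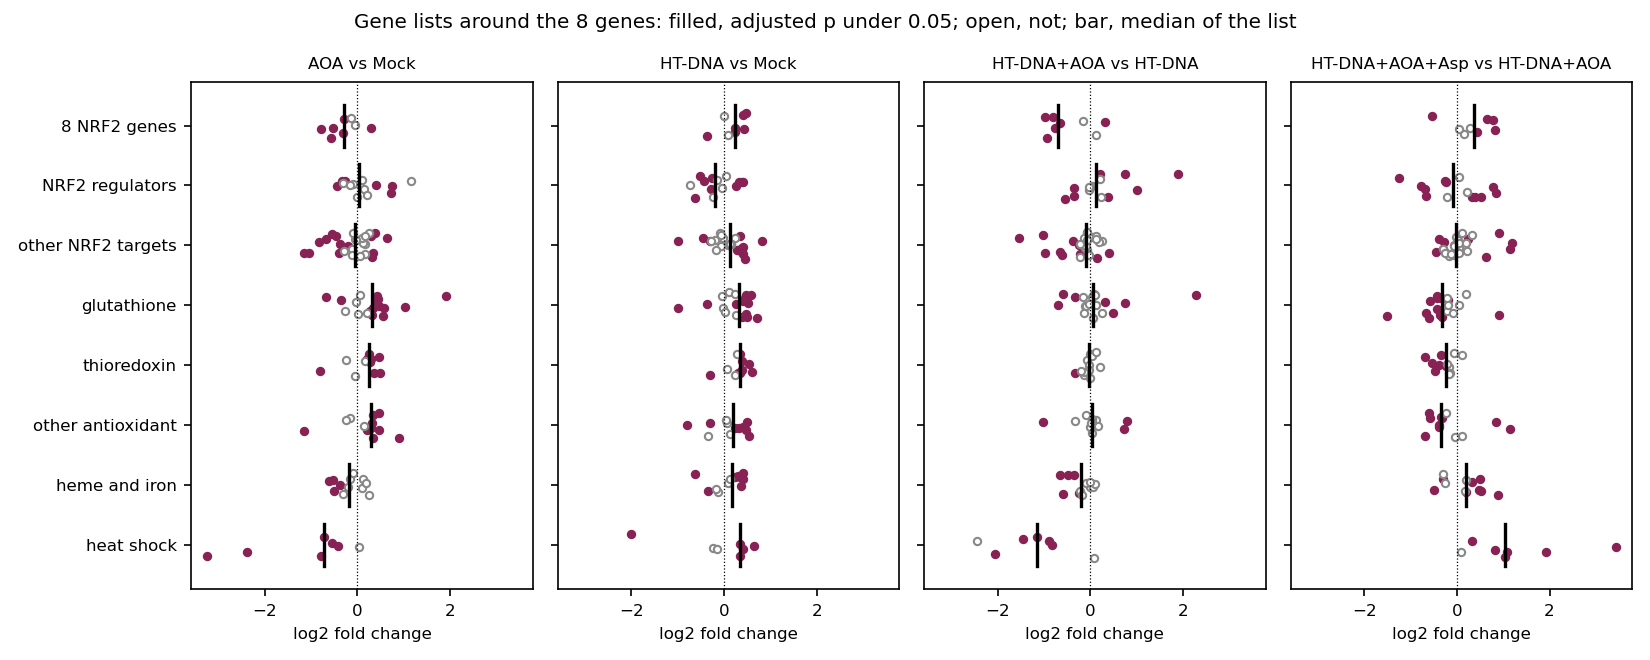
Log2 fold change (x axis) of the tested genes of each list (rows; points spread vertically for legibility) in 4 comparisons; filled points passed adjusted p under 0.05 and the bar is the median of the list. The 8 NRF2 genes have medians of -0.30 with AOA and -0.71 with AOA on HT-DNA. The glutathione and thioredoxin lists have medians of 0.32 and 0.25 with AOA, and of 0.05 and -0.03 with AOA on HT-DNA.

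Scaling moved both small and large values of the 8 genes, those beyond 1.5 times being given with each comparison. With library totals the median log2 fold change of all genes shifted by -0.13 for AOA against Mock and by -0.11 for HT-DNA against Mock, so that values under that scaling are to be read against those shifts. The calls of all genes then split into 2124 higher and 4502 lower with AOA (3199 and 3317 with TMM), 2408 and 4437 with HT-DNA (3454 and 3425), 4087 and 2484 for AOA+Asp against AOA (3345 and 3255) and 4194 and 2548 for HT-DNA+AOA+Asp against HT-DNA+AOA (3386 and 3411). They split into 231 and 873 for AOA+Asp against Mock (360 and 563) and 1388 and 763 for the AOA interaction (1031 and 1178). The GC content and length correction gave 904 and 747 for AOA+Asp against Mock and, for the aspartate interaction, 185 and 209 (38 and 112 with TMM).

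GC content bears on the members unevenly. Osgin1 has 59.3% GC in its longest transcript, Hmox1 and Srxn1 53.3%, and Gclm 42.1%. The trend removed from the HT-DNA libraries was 0.23 to 0.40 on the log2 scale for Osgin1, 0.12 to 0.25 for Hmox1, 0.11 to 0.19 for Srxn1 and -0.37 to -0.16 for Gclm. In the HT-DNA+AOA libraries it ran from -0.43 to 0.13 for Gclm and from -0.20 to 0.30 for Osgin1, a spread within 1 group. The part of this trend in the results was not tested.

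**Figure D4:**
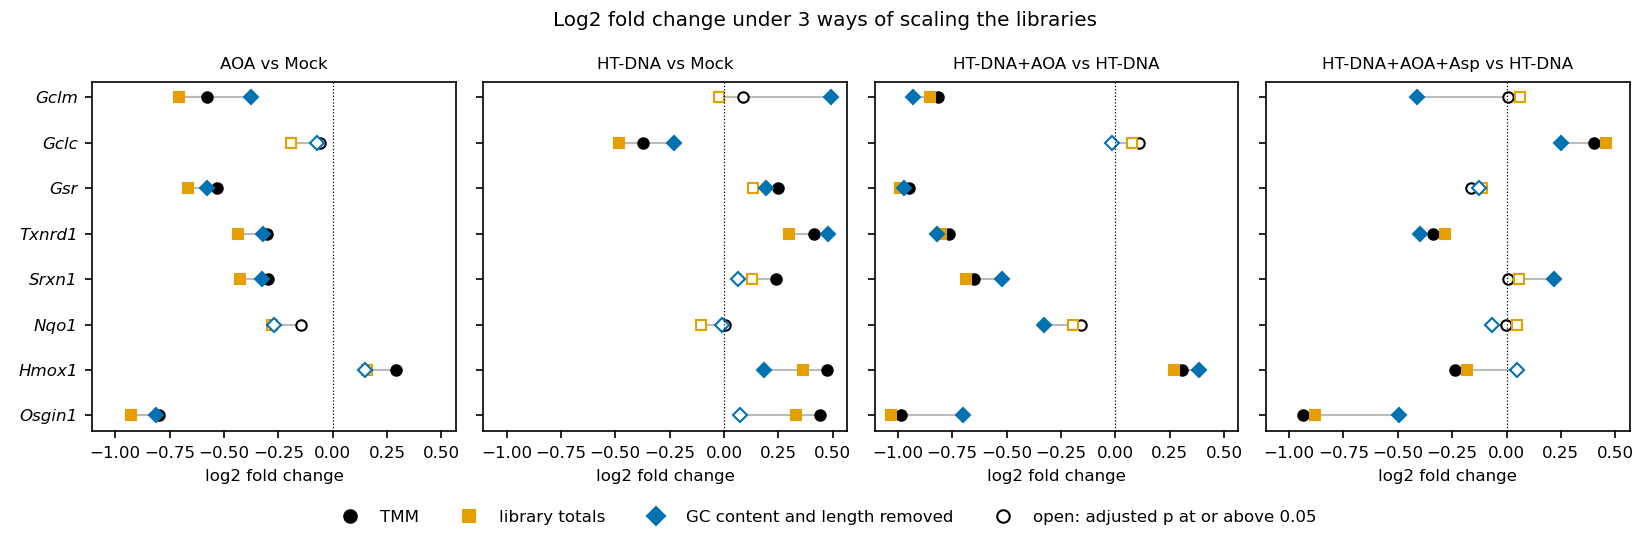
Log2 fold change of each gene in 4 comparisons with TMM (circles), library totals (squares) and the GC content and length correction (diamonds); open symbols did not pass adjusted p under 0.05. The symbols of Gsr, Txnrd1 and Srxn1 stay to the left of 0 in both AOA comparisons, while those of Osgin1, Srxn1 and Gclm spread for HT-DNA against Mock.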

How the data were processed

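RNA of 18 L929 cultures had been isolated with TRIzol reagent, and Majorbio did the sequencing. The aligner, counting program and genome build are not given in the sources used here. The authors deposited estimated counts (expected counts) of reads per gene without normalization, of which 11.6% were not whole. They were rounded. The authors' group means in the same table were not used.

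The rounded counts were tested with edgeR 4.0.16 (R 4.3.3). Genes were kept by filterByExpr (minimum count 10, minimum total 15), libraries were scaled with TMM (factors 0.918 to 1.07), and 1 robust quasi-likelihood model took in the 18 libraries, with Benjamini-Hochberg adjustment over the 14263 genes tested. The 9 comparisons, 2 interactions and the order of levels (15 pairs of groups) came from this model. The SE of a log2 fold change is its size over the root of the F statistic. CPM are relative to TMM-scaled totals of the tested genes.

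The members and lists were chosen with earlier results of these data known. From each list the text names Nfe2l2, Keap1, Bach1, Slc7a11, Txn1 and Sqstm1 and, per comparison, from the 2 largest rises and falls among called genes of at least 1 CPM. The 3 genes most like each member are also named, except 1 gene that is not reported here, and Txnip, Cat and Hspa8 fall under this rule as well. Exon lengths, GC content and shared 31-base sequences came from GENCODE vM21, which may not be the authors' annotation.

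Alternatives were DESeq2 1.42.0, RLE, library totals, no filter, at least 10 counts in every library, only the libraries compared, the replicate number as a block, a log2 fold change of at least 1, removal of each library's loess trend with GC content and length (span 0.3) and each library left out. The steps were tested on simulated data in which a small part of the genes changed, each by at least 1 on the log2 scale. Smaller changes, such as most of those of the members, were not simulated.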

Additional observations from a re-analysis of the deposited data

Results flagged for a closer look

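The effect of AOA differed between cells without and with HT-DNA for 3 of the 8 genes, by an interaction term in edgeR's quasi-likelihood model. For Txnrd1 the log2 fold change with AOA was -0.30 without HT-DNA and -0.77 with it, a difference of -0.46 (adjusted p = 0.00344). For Srxn1 it was -0.30 and -0.65, a difference of -0.35 (adjusted p = 0.0117). For Gsr it was -0.53 and -0.95, a difference of -0.41 (adjusted p = 0.0111). Mean levels with AOA were close in both backgrounds (Txnrd1 255 and 246 CPM, Srxn1 181 and 168 CPM, Gsr 56.4 and 50.3 CPM), whereas without AOA they were higher with HT-DNA than in Mock (419 against 315, 263 against 223 and 96.8 against 81.7 CPM). Of these rises with HT-DNA, that of Txnrd1 was called in each alternative fit, that of Srxn1 was not called with library totals (0.13, adjusted p = 0.0611) or after the GC content and length correction (0.06, adjusted p = 0.266), and that of Gsr was not called with library totals (0.14, adjusted p = 0.0746). Across all genes, 15.5% were called in this interaction.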

How the results depend on the processing

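No gene of the 8 changed by 1 or more on the log2 scale in the 9 comparisons and 2 interactions. A minimum of 1 therefore left 0 of the 8 in each of the 9 results with calls: 8 comparisons and the AOA interaction. Among the other pairs of groups, Osgin1 was higher by more than 1 in HT-DNA against AOA (1.24) and in HT-DNA against AOA+Asp (1.03). The GC content and length correction raised the number of the 8 called to 2 for AOA+Asp against Mock, 3 for HT-DNA+AOA against AOA and 1 for the aspartate interaction. It also raised the share of all genes called, from 6.47% to 11.6%, from 13.4% to 20.3% and from 1.05% to 2.76% in these 3 results. Fitting only the libraries compared gave 1 for HT-DNA+AOA+Asp against AOA+Asp. With 1 library left out, the number called was 6 to 6 for AOA against Mock, 5 to 5 for AOA+Asp against AOA, 1 to 1 for AOA+Asp against Mock, 5 to 6 for HT-DNA against Mock, 6 to 7 for HT-DNA+AOA against HT-DNA, 5 to 6 for HT-DNA+AOA+Asp against HT-DNA+AOA, 3 to 4 for HT-DNA+AOA+Asp against HT-DNA, 1 to 2 for HT-DNA+AOA against AOA, 0 to 0 for HT-DNA+AOA+Asp against AOA+Asp, 3 to 3 for the AOA interaction and 0 to 1 for the aspartate interaction (1 without HT-DNA+AOA replicate 3). The replicate numbers did not pair the samples: same-numbered libraries of different groups correlated at -0.11 to 0.278, with 7 of 45 pairs over 0.1, and 9 of 18 libraries correlated best with their own number. With the replicate number as a block, 6 in place of 5 of the 8 were called for HT-DNA+AOA+Asp against HT-DNA+AOA, the added gene being Gclc (0.31, adjusted p = 0.0184), and no other call of the 8 changed.

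The sign of a value called with TMM turned only under the GC content and length correction. In HT-DNA against Mock this held for Cul3 (0.0214), Gpx4 (-0.0358), Ireb2 (0.0302), Maff (-0.0471), Gstp1 (-0.00626) and Ftl1 (-0.10). In HT-DNA+AOA+Asp against HT-DNA it held for Hmox1 (0.0468), Keap1 (0.0144), Btrc (-0.083), Ireb2 (-0.12), Gsk3b (-0.0939), Ftl1 (0.16) and Bag3 (0.00668). Other values were not called with TMM and were called with the other sign after that correction. These were Gstp1 in AOA against Mock (-0.13) and in HT-DNA+AOA against AOA (-0.13), Abcc1 in HT-DNA against Mock (0.21) and in HT-DNA+AOA+Asp against HT-DNA+AOA (-0.14), Gclm (-0.41), Cul3 (-0.17) and Ugdh (-0.37) in HT-DNA+AOA+Asp against HT-DNA, and Tfrc (-0.31) and Gsk3b (-0.20) in the AOA interaction. The cause was not tested. Depth limits Osgin1 and Nqo1 most, whose counts per library did not exceed 321 and 292.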
